A study of Mus musculus with 19 samples.

Results

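Keratin genes that are best known from the lining of the mouth, tongue and oesophagus, or that are listed with them, were followed through tumours of 3 cell-of-origin models and normal mouse skin. They are Krt13, Krt24 and Krt23 (type I keratins) and Krt4, Krt76 and Krt78 (type II keratins), taken by symbol, and they are 6 of 34807 genes in the count table, which also holds 48 other keratin genes. The symbols were picked with earlier results on these same libraries in view, in which Ivl tumours were set against K5 and K14 tumours and tumours against skin. Their levels and differences in those comparisons are therefore a description. Counts of them past the threshold of a fit over all genes are printed beside the share of all genes and nothing is read from them. Only the comparison of K5 with K14 is read as a test.

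The tumours, labelled squamous cell carcinoma, came from female mice in which the oncogene BRAFV600E was switched on by a tamoxifen-dependent Cre. The Cre was driven by the promoter of involucrin (Ivl, active in suprabasal keratinocytes and in basal cells already committed to differentiate), keratin 5 (K5) or keratin 14 (K14, both active in the basal stem cell population), and the labels give mice of 7 to 20 weeks. Per the study's methods the mice were on a C57BL/6J background, and shaved backs were treated with tamoxifen in the Ivl model and with 4-hydroxytamoxifen in the other models. In all, 6 tumours came from the Ivl model, 5 from K5 and 4 from K14, beside normal skin of 4 wild-type (WT) females. The study describes lesions at several body sites in the Ivl model, the lips and paws among them, and on the treated back in the other models. The site of each tumour is not labelled, so body site and cell of origin cannot be told apart. Per the study, tumours also arose much later after induction and grew more slowly in the Ivl model. Latency and cell of origin therefore cannot be told apart. Bulk RNA was measured, so fewer cells of a type and less RNA per cell cannot be told apart either.

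Keratins form filaments as obligate pairs of 1 type I and 1 type II chain, and each kind of stratified epithelium uses its own pair once cells leave the basal layer. KRT4 and KRT13 are the pair of the suprabasal cells of non-keratinising mucosa, such as the oesophagus and the underside of the tongue, while interfollicular epidermis uses KRT1 and KRT10 in the same position. KRT76 belongs to the hard palate and gums, KRT78 to differentiating stratified epithelia in general, KRT24 to scattered differentiated keratinocytes, and KRT23 to simple and stressed epithelia.

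All 6 genes are protein coding and lie on the minus strand of GRCm38. The type I genes sit in the cluster on chromosome 11, with Krt24 at chr11:99279959-99285262, Krt23 at chr11:99477974-99493137 and Krt13 at chr11:100117327-100121566. The type II genes sit within a short stretch of chromosome 15, with Krt76 at chr15:101884351-101892920, Krt4 at chr15:101918535-101924735 and Krt78 at chr15:101946001-101954287. The exons of Krt76 overlap an antisense gene, Gm44356, and whether the counting used strand is not given in the sources used here.

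To see how far reads of one keratin could be taken for another, coding sequences of the GENCODE transcripts were compared. The nearest keratin to Krt13 was Krt15 (73.6% identical bases in a global alignment), and for Krt4 and Krt76 it was Krt6a (69.8% and 69%). The nearest to Krt24 was Krt12 (64.4%), to Krt23 Krt20 (60.7%) and to Krt78 Krt9 (51.3%). None of the 6 thus had a copy near-identical over the whole coding sequence among the 52 keratins compared. Krt78 has the longest coding sequence, 3204 bases, against 1266 to 1782 bases in the other 5. Gaps counted as differences, so its length lowers its values. Krt9, which lies in the type I cluster, need not be the closest relative of Krt78.

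Before the levels, 1 feature of the table bears on them. In Ivl tumours 1, 2 and 3 and K5 tumour 1, the mean level over those 4 libraries was within 0.1 log2 of the mean over the other 15 for 96.6% of 13954 genes. The same held for all 6 keratins. Scaled by library total, Krt13 averaged 323.7 in the 4 libraries and 306.4 in the other 15 (CPM, the count scaled to a common library size), and the log2 ratio of the 6 genes ran from -0.03 to 0.09. The 4 libraries hold 3 of the Ivl tumours and no skin, and the other 15 all 4 skin samples, so levels in the 4 libraries are not free of those in the 15. The authors had adjusted the counts for batch. Sequencing was done in batches, at separate times, whose sizes per the study are those of these sets, and the labels do not say which library belonged to which. K5 tumour 1 stood apart most, with 2 counts each for Krt13 and Krt4 and 1 each for Krt76 and Krt24 in a library of 72609771 counts. Fitted differences of the 6 keratins are therefore given over all 19 libraries and within the 15, while those of other genes are over all 19 unless stated.

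All levels given here are of RNA. The study also reported more Krt4 and Krt13 RNA in Ivl tumours. Its tissue staining of both proteins, however, showed no marked difference between the models, and normal skin was stained as well. Krt13 RNA, of the mucosal type I keratin, was high in every Ivl tumour, low in the K5 and K14 tumours and near 1 CPM in skin. In CPM, with library size corrected for composition (TMM) from here on, Ivl tumours 1 to 6 held 985, 252, 79.9, 2446, 2592 and 281. K5 tumours 1 to 5 held 0.032, 17.8, 17.1, 15.6 and 15.4, K14 tumours 1 to 4 held 6.74, 10.1, 9.44 and 15.4, and skin samples 1 to 4 held 0.857, 0.641, 0.431 and 1.06. All 6 Ivl tumours lay above all 9 K5 and K14 tumours, with 79.9 CPM in the lowest of the former and 17.8 CPM in the highest of the latter. All Ivl tumours lay above skin, and so did the K5 and K14 tumours apart from K5 tumour 1. The fitted log2 difference between Ivl and K5/K14 was 6.53 ± 0.86 (SE) over all 19 libraries and 7.04 ± 0.49 within the 15. Relative to skin it was 10.53 ± 1.48 for Ivl and 3.996 ± 1.09 for K5/K14 (11.21 ± 0.79 and 4.17 ± 0.56 within the 15), and these 2 comparisons share the skin samples.

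**Figure D1:**
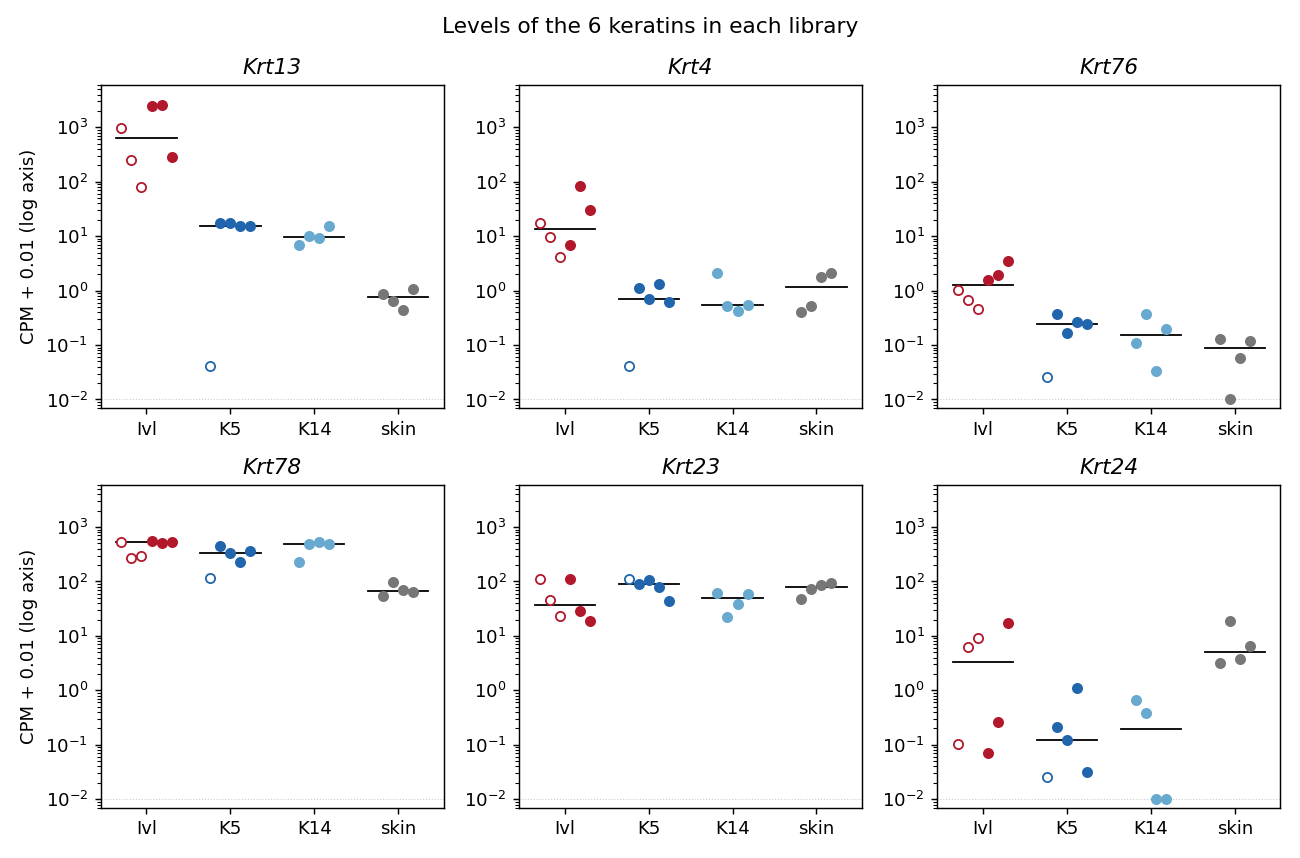
Level of each keratin in every library, as CPM + 0.01 on a log axis, for 6 Ivl, 5 K5 and 4 K14 tumours and 4 skin samples. Points are libraries in replicate order, open points the 4 libraries described above, lines the group medians and the dotted line a count of 0. Krt13, Krt4 and Krt76 show every Ivl tumour above every K5 and K14 tumour, while Krt78 and Krt23 overlap among the tumours.

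Krt4, the type II partner of Krt13, was far less abundant. The Ivl tumours held 17.5, 9.62, 4.15, 6.95, 82.0 and 30.3 CPM. The K5 tumours held 0.032, 1.11, 0.700, 1.33 and 0.605 CPM, the K14 tumours 2.13, 0.507, 0.407 and 0.543, and skin 0.396, 0.517, 1.75 and 2.14. Ivl tumours again lay above every other library, while K5 and K14 tumours overlapped skin. Between Ivl and K5/K14 the log2 fold change was 4.94 ± 0.73 (5.43 ± 0.66 within the 15 libraries). It was 4.38 ± 0.99 for Ivl and -0.56 ± 0.76 for K5/K14 relative to skin (5.04 ± 0.85 and -0.39 ± 0.62 within the 15). Ivl tumour 5 raised both values for Ivl, which were 4.06 and 3.51 without it.

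The pair did not keep a fixed ratio. Per kilobase of exon, Krt13 stood 10.9 to 412-fold above Krt4 in the Ivl tumours, 1.17 to 33.3-fold in the K5 and K14 tumours, and between 0.288 and 2.54 of the Krt4 level in skin. The highest ratio was that of Ivl tumour 4, which held 2446 CPM of Krt13 and only 6.95 CPM of Krt4. Ivl tumour 5 had about as much Krt13 as tumour 4 but the most Krt4 of any library.

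Krt76, the palate keratin, was near the limit of detection outside the Ivl tumours. It gave 0.999, 0.673, 0.444, 1.55, 1.94 and 3.51 CPM in the Ivl tumours, at 29 to 182 counts a library. Elsewhere it gave 0 to 16 counts, which is at most 0.369 CPM in the K5 and K14 tumours and 0.119 CPM in skin. No Ivl tumour overlapped the other groups, although Ivl tumour 3 and K14 tumour 2, the nearest pair, were 0.444 and 0.369 CPM. Between Ivl and K5/K14 the log2 fold change was 3.001 ± 0.62 (3.46 ± 0.58 within the 15 libraries), and relative to skin it was 4.44 ± 0.92 for Ivl and 1.44 ± 0.79 for K5/K14 (5.07 ± 0.79 and 1.61 ± 0.66 within the 15).

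Krt78, a keratin of differentiating stratified epithelia, was abundant in every library. Ivl tumours held 523, 271, 295, 547, 520 and 533 CPM, K5 tumours 114, 450, 337, 224 and 356, and K14 tumours 229, 484, 535 and 483. Skin held 53.2, 99.5, 71.2 and 62.8 CPM, below every tumour. The tumour groups overlapped, with a log2 fold change of 0.33 ± 0.27 between Ivl and K5/K14, while relative to skin it was 2.65 ± 0.38 for Ivl and 2.32 ± 0.36 for K5/K14. The values were 0.46 ± 0.25, 2.90 ± 0.29 and 2.43 ± 0.26 within the 15 libraries. Summed levels of 8 keratinocyte markers were also lowest in skin, 7752 to 12309 CPM against 27362 to 87455 CPM in the tumours, and their part in the difference was not tested.

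Krt23, which marks simple and stressed epithelia, overlapped in all 4 groups. Ivl tumours held 110, 45.1, 23.1, 113, 29.2 and 18.9 CPM and K5 tumours 112, 91.5, 107, 79.3 and 43.7. K14 tumours held 61.0, 22.5, 38.6 and 60.02 CPM and skin 48.7, 72.1, 87.1 and 95.2. The log2 fold changes were -0.27 ± 0.41 for Ivl against K5/K14, -0.42 ± 0.50 for Ivl against skin and -0.15 ± 0.46 for K5/K14 against skin, none larger than its error, and -0.23 ± 0.52, -0.50 ± 0.58 and -0.27 ± 0.46 within the 15 libraries.

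Krt24, a keratin of scattered differentiated keratinocytes, was higher in every skin sample than in every K5 and K14 tumour. Skin held 3.204, 18.6, 3.71 and 6.48 CPM. K5 tumours held 0.016, 0.203, 0.113, 1.096 and 0.022 CPM, and K14 tumours 0.664, 0.369 and 2 libraries at 0. The Ivl tumours split widely, at 0.092, 6.34, 8.97, 0.060, 0.258 and 17.1 CPM, so that tumours 2, 3 and 6 fell in the range of skin and tumours 1, 4 and 5, with 3 to 11 counts, in that of the K5 and K14 tumours. The log2 fold change was 4.31 ± 1.17 for Ivl against K5/K14, -0.55 ± 1.31 for Ivl against skin and -4.86 ± 1.25 for K5/K14 against skin. The values were 4.23 ± 1.31, -0.46 ± 1.54 and -4.69 ± 1.27 within the 15 libraries. Single libraries moved them. Between Ivl and K5/K14 the value was 3.51 without Ivl tumour 6 and 4.97 without K5 tumour 4. Between Ivl and skin it was -1.34 without Ivl tumour 6 and turned to 0.28 without skin sample 2. Between K5/K14 and skin it was -4.01 without skin sample 2 and -5.52 without K5 tumour 4.

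**Figure D2:**
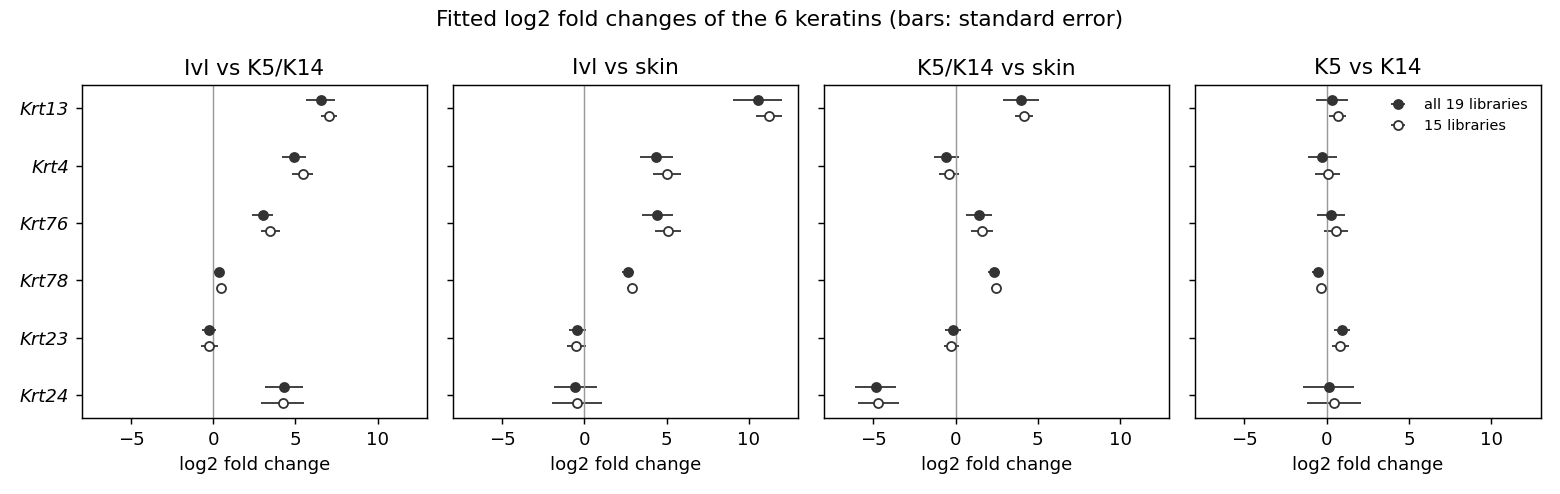
Fitted log2 fold changes of the 6 keratins in 4 comparisons, with bars for 1 standard error, filled over all 19 libraries and open over the 15. Krt13 is highest in each comparison with Ivl, and in K5 against K14 every point lies within 1 log2 unit of 0.

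Of the 6 keratins, 3 passed the threshold of an adjusted p of 0.05 (edgeR quasi-likelihood test over 32031 genes) as higher in Ivl than in K5/K14, namely Krt13, Krt4 and Krt76, and none as lower. The same 3 were the ones without overlap between the groups. Over all genes 1.77% passed as higher in Ivl, and 0.312% lay higher in every Ivl tumour than in every K5 and K14 tumour. Within the 15 libraries the same 3 passed beside a background of 0.213%, and 2.34% of genes did not overlap. Since this comparison was in view when the genes were picked, nothing is read from these counts. Krt76 did not pass without K5 tumour 3 (log2 fold change 2.97), and Krt24 passed without Ivl tumour 1, 4 or 5 (4.57, 4.57 and 4.56) or K14 tumour 1 (4.60). Set against K5 tumours alone, Krt13 and Krt4 passed, beside 0.765% of genes, and set against K14 tumours alone none of the 6 did, beside 0% of genes by edgeR (3061 at an unadjusted p under 0.05, and 220 called by DESeq2). Krt13 and Krt4 passed within the 15 libraries against either model alone, beside 0.144% of genes for K5 and 0.103% for K14.

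Relative to skin, 4 of 6 passed as higher in Ivl (Krt13, Krt4, Krt76 and Krt78), beside 20.4% of all genes, and the same 4 did not overlap, beside 13.2%. Within the 15 libraries the same 4 passed beside 22.2%. In K5/K14, 2 passed as higher than skin (Krt13 and Krt78), beside 23.2%, and 1 as lower (Krt24), beside 38.9%. Krt78 lay above skin in every K5 and K14 tumour, as 16.7% of genes did, and Krt24 below it, as 24.6% did. Within the 15 libraries Krt76 passed as well, for 3 higher beside 23.9% and 1 lower beside 42.3%. The symbols were picked with these comparisons in view too, and nothing is read from the counts.

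Between K5 and K14 tumours none of the 6 genes passed the test. The log2 fold changes of K5 against K14 ran from -0.55 ± 0.33 for Krt78 to 0.93 ± 0.50 for Krt23, with edgeR adjusted p-values of 0.847 to 1. The 95% intervals were wide, from -0.05 to 1.91 for Krt23, from -1.58 to 2.26 for Krt13 and from -2.91 to 3.18 for Krt24, and differences within those intervals are not excluded with 5 and 4 tumours. Within the 15 libraries the values ran from -0.34 ± 0.26 for Krt78 to 0.82 ± 0.51 for Krt23, and none of the 6 passed. Among all genes 0% passed in this comparison by edgeR, with 1945 at an unadjusted p under 0.05, while DESeq2 called 174 genes and none of the 6.

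Seen as a share of all keratin signal per kilobase, the 6 genes together made up 0.430% to 3.91% in Ivl tumours, 0.175% to 0.347% in K5 and K14 tumours and 0.906% to 1.45% in skin. Krt13 made up 0.225% to 4.72% of type I keratin in the Ivl tumours and at most 0.0266% in the K5 and K14 tumours. In skin it made up at most 0.0144%. Krt78 made up 0.347% to 1.84% of type II keratin in Ivl tumours, 0.152% to 0.627% in K5 and K14 tumours and 0.723% to 1.501% in skin, and Krt4 at most 0.132% in any library.

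Neighbours in the clusters were compared to ask whether the difference was shared along the chromosome. None of the 48 other keratin genes passed between Ivl and K5/K14 by edgeR, beside 2.36% of all genes in either direction, and DESeq2 called 2. At an unadjusted p under 0.05 there were 11 of the 48, and 6754 of all 32031 genes. The median log2 fold change of the 48 was 1.58 beside 0.11 over all genes, and 0.73 beside 0 within the 15 libraries. Krt36 and Krt15, which flank Krt13, had log2 fold changes of 1.62 ± 0.61 and 1.45 ± 0.52 (adjusted p = 0.135 and 0.125). Krt79, between Krt4 and Krt78, had 0.45 ± 0.89 (adjusted p = 0.825), and Krt77, next to Krt76, had 2.67 ± 1.202 (adjusted p = 0.212). The epidermal pair Krt1 and Krt10, which differentiating epidermis uses in place of Krt4 and Krt13, had 0.52 ± 0.43 and 0.66 ± 0.42 (adjusted p = 0.51 and 0.387). Within the 15 libraries the pair had 0.74 ± 0.44 and 0.91 ± 0.47.

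**Figure D3:**
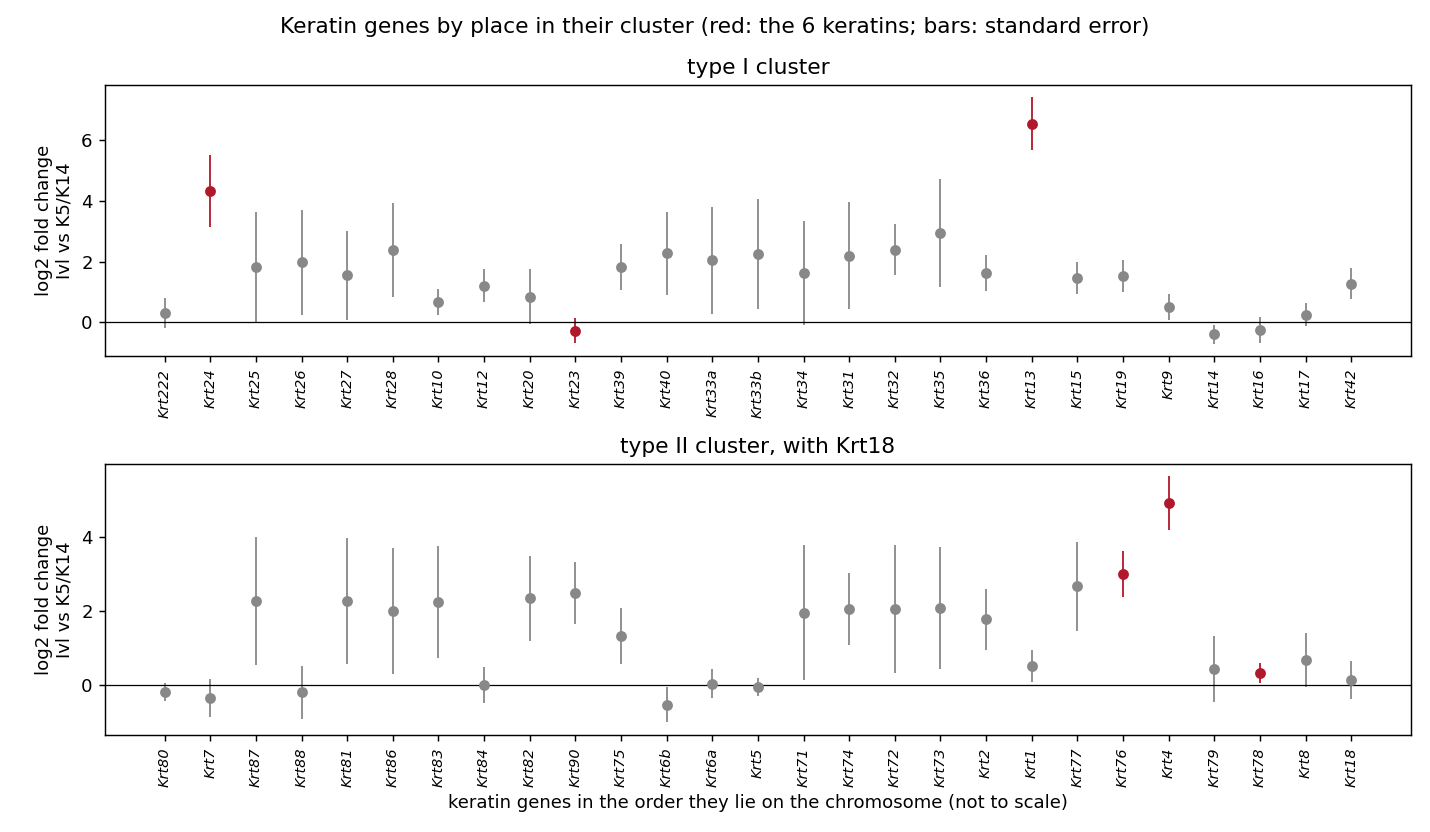
Log2 fold change between Ivl and K5/K14, with bars for 1 standard error, for the keratin genes in the order they lie in the type I cluster (top) and the type II cluster (bottom), with the 6 keratins in red. Krt13 (6.53), Krt4 (4.94), Krt24 (4.31) and Krt76 (3.001) lie above all 48 others, of which the highest is Krt35 (2.93).

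The promoters of 5 of the 6 genes were in the RefSeq table (GRCm38.p6). Krt4 was not. Those of 3 genes are printed, each from 250 bases before to 50 after the start, because the genes follow 3 patterns, high in Ivl tumours (Krt13), higher in all tumours than in skin (Krt78) and low in K5 and K14 tumours (Krt24). For Krt13, with 2 starts in the table, the one at the annotated gene end was used. Matches were sought on either strand to the TATA box core TATAAA and to the AP-1 motif TGANTCA. The core of SOX factor motifs, CATTGT, and the KLF4-like motif CCNCNCCC were sought as well. Capitals mark the matches, which do not overlap.
Krt13, chr11:100121517-100121816: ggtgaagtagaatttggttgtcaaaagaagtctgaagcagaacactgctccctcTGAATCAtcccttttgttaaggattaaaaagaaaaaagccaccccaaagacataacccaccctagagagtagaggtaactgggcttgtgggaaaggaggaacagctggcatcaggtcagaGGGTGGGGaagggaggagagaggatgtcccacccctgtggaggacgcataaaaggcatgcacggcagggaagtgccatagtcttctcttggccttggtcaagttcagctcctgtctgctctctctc
Krt78, chr15:101954238-101954537: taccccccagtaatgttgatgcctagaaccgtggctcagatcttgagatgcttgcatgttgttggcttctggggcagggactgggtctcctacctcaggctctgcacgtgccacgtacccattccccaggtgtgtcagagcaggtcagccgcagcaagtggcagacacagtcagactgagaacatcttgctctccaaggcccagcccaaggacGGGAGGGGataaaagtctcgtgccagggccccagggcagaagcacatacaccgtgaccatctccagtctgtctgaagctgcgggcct
Krt24, chr11:99285213-99285512: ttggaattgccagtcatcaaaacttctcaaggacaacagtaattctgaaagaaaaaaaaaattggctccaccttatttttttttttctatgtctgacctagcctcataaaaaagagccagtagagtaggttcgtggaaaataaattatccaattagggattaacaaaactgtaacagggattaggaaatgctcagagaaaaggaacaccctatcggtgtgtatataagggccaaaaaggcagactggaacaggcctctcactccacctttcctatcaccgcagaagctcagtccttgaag
The Krt13 window held 1 AP-1 match and 1 KLF4-like match, the Krt78 window 1 KLF4-like match, and the Krt24 window none of the 4. Of those not printed, Krt76 had a TATA box match 29 bases before its start and Krt23 a SOX core match 90 bases before its start. Over 32851 promoters of the same length, 13.6% held TATAAA, 7.81% TGANTCA, 12.6% CATTGT and 49.5% CCNCNCCC. A match is a run of letters and not a binding site.

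Other genes of mucosal and skin epithelium were counted in lists. These were drawn up with earlier results known. Of 22 genes of mucosal differentiation, such as cornulin and the TMPRSS11 proteases, 1 rose and none fell in Ivl against K5/K14. That is 4.55% raised, beside 1.77% of all genes. The list median was 0.43 log2 beside 0.11 over all genes. Without K5 tumour 1 none passed. The 1 gene was Lypd2 (3.87 ± 0.80, adjusted p = 0.025 by edgeR), which lay at only 0.170 ± 0.143 CPM (SD, n = 6) in Ivl. Within the 15 libraries Lypd2 did not pass (3.57 ± 0.94, adjusted p = 0.12), while 2 other genes of the list did, Sprr3 (4.17 ± 0.48, adjusted p = 0.0052) and Tmprss11a (2.01 ± 0.40, adjusted p = 0.049), named after their values were seen. Against skin, 18 of the 22 rose in Ivl and none fell (median 3.37 beside -0.46), and 18 rose and 1 fell in K5/K14 (median 3.37 beside -0.60). Over all genes 20.4% rose and 15.5% fell in Ivl against skin, and 23.2% rose and 38.9% fell in K5/K14. Tmprss11g, a serine protease, rose by 4.17 ± 0.49 in Ivl and 4.08 ± 0.48 in K5/K14, and the water channel Aqp3 by 3.22 ± 0.36 and 4.01 ± 0.37. In the Ivl and the K5 and K14 tumours, Tmprss11g stood at 64.1 ± 11.9 CPM (SD, n = 6) and 60.5 ± 26.5 CPM (SD, n = 9). Summed keratinocyte markers were lowest in skin, as given with Krt78, and their part in the rises against skin was not tested.

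Of 16 transcription factors of oral and foregut epithelium, 2 rose (12.5%, beside 1.77% of all genes) and none fell in Ivl against K5/K14, with a median of 1.51 beside 0.11. Of these, Sox2, a factor of oral and oesophageal progenitors, rose by 4.22 ± 0.59 (adjusted p = 0.0024). Sox2 held 15.02, 2.84, 2.86, 31.2, 32.0 and 4.49 CPM in Ivl tumours 1 to 6, 0.127 to 1.45 CPM in the K5 and K14 tumours and 0.732 to 1.71 CPM in skin. Pitx1 and Pax9, also on this list, did not pass between the models (1.42 ± 0.50, adjusted p = 0.12, and -0.62 ± 0.59, adjusted p = 0.58). Both rose in each tumour group against skin, Pitx1 by 6.43 ± 0.84 in Ivl and 5.02 ± 0.77 in K5/K14 and Pax9 by 5.73 ± 0.95 and 6.34 ± 0.97. Pitx1 is not particular to oral tissue, since the study cites a network of SOX2, TRP63 and PITX1 proposed for squamous cell carcinoma. In all, 4 of the 16 rose (25%, beside 20.4% of all genes) and 1 fell (6.25%, beside 15.5%) in Ivl against skin. In K5/K14 against skin 3 rose (18.8%, beside 23.2%) and 8 fell (50%, beside 38.9%). Within the 15 libraries 2 passed between Ivl and K5/K14, Sox2 (4.69 ± 0.50, adjusted p = 0.00046) and Pitx1 (1.74 ± 0.29, adjusted p = 0.02). Leaving out 1 library gave 1 (without K5 tumour 3) to 3 (without K14 tumour 1) of the 16 between Ivl and K5/K14.

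Of 17 general keratinocyte differentiation factors, none passed between Ivl and K5/K14 by edgeR or DESeq2, and 0 had an unadjusted p under 0.05 (median 0.0086 beside 0.11). Over all genes 20.4% rose and 15.5% fell in Ivl against skin, and 23.2% rose and 38.9% fell in K5/K14. Of the 17, 12 rose (70.6%) and 1 fell (5.88%) in Ivl against skin, and 13 rose (76.5%) and 1 fell (5.88%) in K5/K14 against skin. Ovol1 rose by 2.07 ± 0.26 and 1.91 ± 0.25, and Gata3 fell by 1.03 ± 0.36 and 1.53 ± 0.32. Of 23 hair and inner root sheath keratins none passed between Ivl and K5/K14 by edgeR, with 4 at an unadjusted p under 0.05 and 1 called by DESeq2. Their list median was nonetheless 2.07 beside 0.11 over all genes, and 1.05 beside 0 within the 15 libraries. Without K14 tumour 1, which held 267 CPM of Krt25, 17 passed. None passed in Ivl against skin by either tool, with 0 at an unadjusted p under 0.05. In K5/K14 against skin 5 fell (21.7%, beside 38.9% of all genes), and 3 (without skin sample 1) to 22 (without K14 tumour 1) passed when a library was left out. Of 23 other epithelial keratins, none passed between Ivl and K5/K14 by edgeR, with 7 at an unadjusted p under 0.05 and 1 called by DESeq2. Against skin 9 of them rose in Ivl (39.1%, beside 20.4% of all genes). In K5/K14 8 rose (34.8%, beside 23.2%) and 7 fell (30.4%, beside 38.9%). Krt6b, a keratin of activated epidermis, was up by 6.76 ± 0.81 in Ivl and 7.27 ± 0.82 in K5/K14. Against skin, 5 of the other epithelial keratins also fell in Ivl within the 15 libraries (21.7%, beside 32.7% of all genes).

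Within the Ivl tumours the 6 keratins did not rise and fall together. Tumours 1, 4 and 5 held the most Krt13 and the least Krt24, and tumours 2, 3 and 6 the reverse. Tumours 1, 2 and 3 are among the 4 libraries described above, whose levels are not free of those in the other 15. Outside that set the split rests on tumours 4 and 5 against tumour 6 alone. Pitx1 ran at 218, 295 and 255 CPM in tumours 1, 4 and 5 and at 27.1, 40.9 and 104 CPM in tumours 2, 3 and 6, and Pax9 at 9.898, 11.97 and 15.4 against 0.919, 0.735 and 2.87 CPM. Krt4 and Krt76 followed another order, with tumour 6 second in Krt4 (30.3 CPM) and first in Krt76 (3.51 CPM).

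Markers of other tissue moved with that split. The summed level of 6 skeletal muscle markers was 9.79 to 12.04 CPM in Ivl tumours 1, 4 and 5 and 386 to 3853 CPM in tumours 2, 3 and 6. In skin it was 2222 to 6447 CPM. Of tumours 2, 3 and 6, only tumour 6 (386 CPM) lies outside the 4 libraries described above. The summed level of 6 sebaceous gland markers was 22.2 to 63.7 CPM in tumours 1, 4 and 5 and 120 to 531 CPM in tumours 2, 3 and 6. The hair follicle keratin Krt25 was 158 to 297 CPM in tumours 2, 3 and 6, 32.9 CPM in tumour 4 and under 1 CPM in tumours 1 and 5. The parts of admixed tissue and of the batch adjustment in the levels of Krt13 and Krt24 were not tested. Of the 7 salivary gland markers 3 were in the table, and their sum was at most 10.3 CPM in any Ivl tumour and 5.63 to 14.5 CPM in skin. Fibroblast marker sums were 1464 to 10716 CPM in Ivl and 3756 to 14908 CPM in K5 and K14 tumours, and immune marker sums 114 to 2808 and 837 to 2510 CPM. Within Ivl, fibroblast sums were 1464 to 1715 CPM in tumours 1, 4 and 5 and 2671 to 10716 CPM in tumours 2, 3 and 6. Endothelial sums were 58.1 to 85.7 CPM in tumours 1, 4 and 5 and 131 to 248 CPM in tumours 2, 3 and 6. Immune sums overlapped between those sets, with 114, 1169 and 1312 CPM against 800.1, 943 and 2808 CPM. The part of these cells in the split was not tested either.

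The summed level of 20 trunk and limb HOX genes, which record position along the body, was 236, 16.7, 23.02, 64.5, 22.4 and 8.51 CPM in Ivl tumours 1 to 6. It was 18.5 to 46.02 CPM in K5 tumours 2 to 5, 299 CPM in K5 tumour 1, 103 to 179 CPM in K14 tumours and 131 to 189 CPM in skin. Sums below every K14 tumour and skin sample were found in Ivl tumours 2 to 6, with Krt13 at 79.9 to 2592 CPM, and in K5 tumours 2 to 5, with Krt13 at 15.4 to 17.8 CPM. The highest sums, 236 CPM in Ivl tumour 1 and 299 CPM in K5 tumour 1, were both in the set of 4 libraries, whose levels are not free of those in the 15. The parts of body site and of the batch adjustment were not tested.

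**Figure D4:**
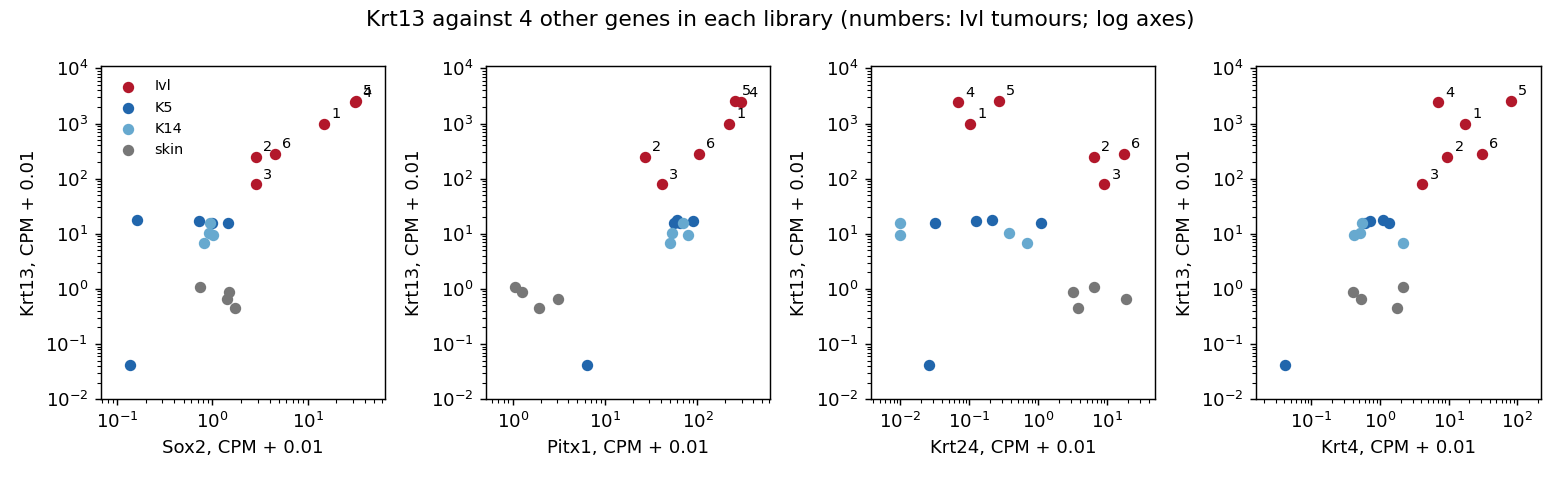
Krt13 against Sox2, Pitx1, Krt24 and Krt4 in each of the 19 libraries, all as CPM + 0.01 on log axes, with the Ivl tumours numbered. Ivl tumours 1, 4 and 5 lie at the top with Sox2 of 15.02 to 32.0 CPM, and at the left of the Krt24 panel.

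The genes most like each keratin were ranked by Pearson r of log2 CPM over the 15 tumours among 14945 genes with a mean of at least 1 CPM, as a description, since the tumours share models and libraries. Krt13 was closest to Sox13 (r = 0.938), Il1rn (0.914), Sox2 (0.912), Krt4 (0.909) and Gm35315 (0.897). Over the 6 Ivl tumours alone r was 0.971 for Sox13 and 0.964 for Sox2 but 0.52 for Krt4. Krt4 was closest to Grik3 (0.91), Krt13, Sox13 (0.908), Wnt7b (0.89) and Dlx1 (0.888).

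Krt76 was closest to the retinoid carrier Rbp7 (r = 0.95), Gsta3 (0.933), Rapgef5 (0.887), Krt4 (0.886) and Gss (0.886). Krt24 was closest to Tppp3 (0.949), Sfrp4 (0.927), Myoc (0.923), Gpm6a (0.922) and Acan (0.914), none of them a keratin. Krt78 was closest to Fndc11 (0.946), Nkpd1, AA986860, Polr3g and Tmpo, and Krt23 to Ceacam12 (0.838), Gm44613, Grk6, Alg2 and Lzts1. Of each list of 5, between 0 and 2 were also among the 5 nearest over the 11 tumours outside the 4 libraries described above.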

How the data were processed

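Tumours and normal skin were profiled by strand-specific poly(A) RNA-seq. The authors trimmed reads, aligned them with HISAT2 2.1.0 to GRCm38, counted them with featureCounts (Subread 1.6.3) and adjusted the counts for batch with ComBat-seq. The deposited values are therefore adjusted, estimated counts, which were already whole numbers, and the study names batches sequenced at different times, of the sizes of the sets of 4 and 15 libraries, without the labels saying which library was in which. Totals ran from 45715309 to 72609771 per library. The filter asked for 5 counts or more in any library, which left 32031 of 34807 genes. Symbols came from GENCODE M21, which matched 34694 identifiers. Groups were compared with the edgeR 4.0.16 quasi-likelihood test (TMM scaling, R 4.3.3) over all 19 libraries, K5 and K14 merged as in the study, with Benjamini-Hochberg adjustment at 0.05. Replicates are separate samples by label, with no animal named, so p-values measure the spread between these samples only. The nearest library pair within any group had a chi-square of 19.8 per degree of freedom, so none looked like the same library entered again. The counts were batch-adjusted, so this check could not show the same RNA sequenced in both batches, nor tumours that shared an animal. CPM are TMM-scaled. SE is the standard error of the fitted log2 fold change and 95% intervals are normal approximations. In a simulation of Ivl against K5/K14 on 32031 genes, 95% of 100 genes changed 16-fold and 90% of 100 changed 4-fold were recovered, and 13 unchanged genes were called. The changed genes were drawn from those with a mean above 1 CPM, and the simulated libraries were independent, without batch adjustment. The recovery therefore does not carry over to genes at lower levels, such as Krt76, or to libraries that depend on each other. Named genes are the 6 keratins, for each the 5 nearest genes by r, up to 3 genes per list and direction with the smallest adjusted p, and Sox2, Pax9 and Pitx1. Further keratins were named by their place in the cluster. The members, lists and the set of 4 libraries were chosen with earlier results of these data known. Alternatives were DESeq2 1.42.0, other size factors, other filters, a replicate block, the 15 libraries alone, the 4 libraries as a covariate and leaving out each library. Some items are not reported here.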

Additional observations from a re-analysis of the deposited data

Results flagged for a closer look

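In 30 sets of 4 to 9 libraries, the 6 keratins in Ivl, K5, K14, merged K5/K14 and skin, 5 held a library whose gap to the nearest other was large for the range of the group. Chance would mark about 1 in 20 groups of independent, normally distributed values. The values here were CPM without logs, and the merged sets reuse the K5 and K14 libraries, so that rate does not carry over. Krt4 was highest in Ivl tumour 5 (82.0 CPM) and in K14 tumour 1 (2.13 CPM). Krt13 was lowest in K5 tumour 1 (0.0318 CPM). Krt78 was lowest in K14 tumour 1 (229 CPM), and Krt24 was highest among K5 tumours in tumour 4 (1.096 CPM). K14 tumour 1 also held 267 CPM of the inner root sheath keratin Krt25, against at most 15.003 CPM in the other K14 tumours.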

How the results depend on the processing

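Across the settings other than leaving out a library, 178 of 180 member fold changes kept their direction and moved by less than the replicate spread. The exceptions were Krt78 in Ivl against skin with the 4 libraries as a covariate (3.105) and Krt4 in K5 against K14 within the 15 libraries, which turned to 0.052. Leaving out each library turned the K5 against K14 value of 3 genes in some fits, with ranges of -0.57 to 0.63 for Krt4, -0.11 to 0.93 for Krt76 and -1.61 to 1.2015 for Krt24. Krt24 in Ivl against skin ran from -1.34 (without Ivl tumour 6) to 0.28 (without skin sample 2), a change of direction. Krt24 between Ivl and K5/K14 ran from 3.51 to 4.97 and Krt4 from 4.06 to 5.26. The 756 genes changed in Ivl against K5/K14 became 2161 with DESeq2, 131 within the 15 libraries and 449 with the covariate, and 127 (without K5 tumour 1) to 1328 (without K14 tumour 1) when each library was left out. The 11515 of Ivl against skin became 17566 within the 15 libraries, and the 0 of K5 against K14 became 17 there and 174 with DESeq2. The replicate numbers did not pair the tumours (same-number r of -0.333 to 0.212 over 25 pairs), and the replicate block gave 46 genes for Ivl against K5/K14, with Krt4 (3.94) and Krt76 (2.49) no longer past the threshold and Krt13 (6.30) still past it. Krt24 passed in that comparison with DESeq2 and with filterByExpr. Counts of list genes in Ivl against K5/K14 moved as follows. Mucosal differentiation genes gave 4 with DESeq2, 2 with filterByExpr, within the 15 libraries or with the covariate, and 0 with the replicate block, and Lypd2 was not among the 2 within the 15. Oral factors gave 6 with DESeq2 and 1 with the replicate block. Other epithelial keratins and hair keratins each gave 1 with DESeq2. Other epithelial keratins gave 14 in Ivl against skin within the 15 libraries, and hair keratins in K5/K14 against skin gave 8 with RLE size factors, 9 with filterByExpr and 17 with the replicate block. Leaving out each library gave 0 to 2 mucosal differentiation genes, 1 to 3 oral factors, 0 to 1 other epithelial keratins and 0 to 17 hair keratins between Ivl and K5/K14, and 3 to 22 hair keratins in K5/K14 against skin. The causes were not tested. Low counts limit Krt76, Krt24 and K5 tumour 1.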
